A study of Mus musculus with 6 samples.

Results

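A set of 10 genes of the osteoblast lineage were followed in MLO-Y4 cells, a mouse line with features of osteocytes, with and without fluid flow. They are 5 transcription factors, Runx2, Sp7, Dlx5, Msx2 and Osr1, and 5 genes of matrix other than collagen, Alpl, Bglap, Spp1, Ibsp and Sparc. The members, like the gene lists below, were chosen by gene symbol with earlier results of these data known. Of the 39174 gene rows of the deposited table, 10 carried a member symbol. RNA was sequenced from 3 flow cultures, exposed for 2 h to oscillating flow (shear stress 10 dyn/cm²) and then kept 2 h in fresh medium, and from 3 sham-treated non-flow control cultures. All 6 cultures were grown in medium with serum on glass slides coated with type I collagen. MLO-Y4 is a single immortalized line, derived from long bone of mice that carried a viral large T antigen under an osteocalcin (Bglap) promoter.

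RUNX2 and, downstream of it, SP7 (osterix) are the transcription factors that commit mesenchymal cells to the osteoblast fate, and DLX5 and MSX2 are homeodomain factors that act with BMP signals on the same genes. Osteoblasts then secrete osteopontin (Spp1), osteonectin (Sparc), bone sialoprotein (Ibsp) and osteocalcin (Bglap), and carry alkaline phosphatase (Alpl), which frees phosphate for mineral. Osteocytes arise from osteoblasts that become buried in this matrix. OSR1 is a zinc-finger factor of embryonic limb mesenchyme and connective tissue progenitors.

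RUNX2 binds promoters of matrix genes, so the bases before the start sites of 3 matrix genes with very different levels here are shown. They are Spp1, the member with the most RNA, Bglap, a classical RUNX2 target, and Ibsp, the neighbour of Spp1 on chromosome 5, which was almost without reads. Each run is the 250 bases before the RefSeq start of build GRCm38.p6, 5′ to 3′ on the strand of the gene, and capitals mark the RUNX core ACCACA.
Spp1, chr5:104434861-104435110, plus strand: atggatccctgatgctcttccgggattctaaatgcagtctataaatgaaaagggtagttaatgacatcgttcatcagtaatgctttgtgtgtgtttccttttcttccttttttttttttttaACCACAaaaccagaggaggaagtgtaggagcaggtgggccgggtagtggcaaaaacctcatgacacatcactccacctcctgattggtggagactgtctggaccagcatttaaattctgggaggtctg
Bglap, chr3:88384467-88384716, minus strand: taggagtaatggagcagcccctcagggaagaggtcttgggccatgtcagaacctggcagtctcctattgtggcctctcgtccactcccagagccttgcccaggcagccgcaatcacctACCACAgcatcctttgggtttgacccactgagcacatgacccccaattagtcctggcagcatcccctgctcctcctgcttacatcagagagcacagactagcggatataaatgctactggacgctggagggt
Ibsp, chr5:104299037-104299286, plus strand: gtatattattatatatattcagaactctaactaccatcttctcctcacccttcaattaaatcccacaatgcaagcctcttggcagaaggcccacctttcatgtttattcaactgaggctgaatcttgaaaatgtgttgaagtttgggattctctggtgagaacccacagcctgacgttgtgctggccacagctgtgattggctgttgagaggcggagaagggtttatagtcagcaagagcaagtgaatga
ACCACA was searched on both strands in windows of 300 bases that also hold the 50 bases from the start on. Spp1 held 1 match, 128 bases before the start, and Bglap held 1, 132 bases before the start. No match was found in the Ibsp window. The GENCODE M21 annotation starts Ibsp at 104299171, inside the bases shown, so only part of them lies before that start. TATAAA, the core of a TATA box, lay 27 bases before the start of Bglap, 211 bases before that of Spp1 and, on the other strand, 28 bases before that of Ibsp. The RefSeq table matched 7 of the 10 members, some with more than 1 start, and 4 of the 7 held ACCACA in some window (Runx2, Bglap, Spp1 and Sparc). The only Sparc match lay 35 bases after the start. Runx2 held matches 80 bases before its start and 23 and 31 bases after it. Over all 32817 windows 16.8% held ACCACA and 13.6% held TATAAA. A match describes letters and does not show a bound site.

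Values below are FPKM, read numbers scaled to transcript length and library depth as the authors deposited them, so levels of different genes can be set side by side. Depth was taken from what 1 read is worth in low genes. It was 17910000 to 19010000 reads in the controls and 11020000, 5755000 and 19230000 reads in flow libraries 1 to 3. Flow libraries 1 and 2 were therefore the shallowest. Differences are flow minus control on log2(FPKM + 1), a scale that understates changes of low genes. They were tested with limma over the 11957 genes that averaged 1 FPKM or more, and a call needed a Benjamini-Hochberg adjusted p under 0.05. Over all genes limma called 2, or 0.0167%, and 1019 genes (8.52%) had an unadjusted p under 0.05. The groups did not overlap in 15.1% of genes, with flow below the controls in 8.00% and above them in 7.12%. The replicates were collected on separate days, per the labels. The p-values rest on the spread between these 3 cultures per group, which limma draws toward that of genes of similar level.

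Spp1 ranked at position 2 among protein-coding genes by mean FPKM, and Sparc was also abundant. Osr1 was at intermediate level, and Bglap, Runx2 and Alpl were low. Sp7, Dlx5, Ibsp and Msx2 stayed under 1 FPKM in all libraries and were not tested. The other 6 members were above 1 FPKM in every library. By mean over the 6 libraries, Spp1 (7254 FPKM) stood 14.4-fold over Sparc (502.0), Sparc 9.71-fold over Osr1 (51.7), and below them came Bglap (8.21), Runx2 (8.0) and Alpl (3.11). The lowest value of Spp1 lay above the highest of Sparc, and the same held for Sparc against Osr1 and for Osr1 against Bglap. Bglap and Runx2 did not differ beyond their spread, with Bglap the higher in 3 of 6 libraries. Runx2 was above Alpl in 6 of 6 libraries, although their ranges over libraries overlapped.

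**Figure D1:**
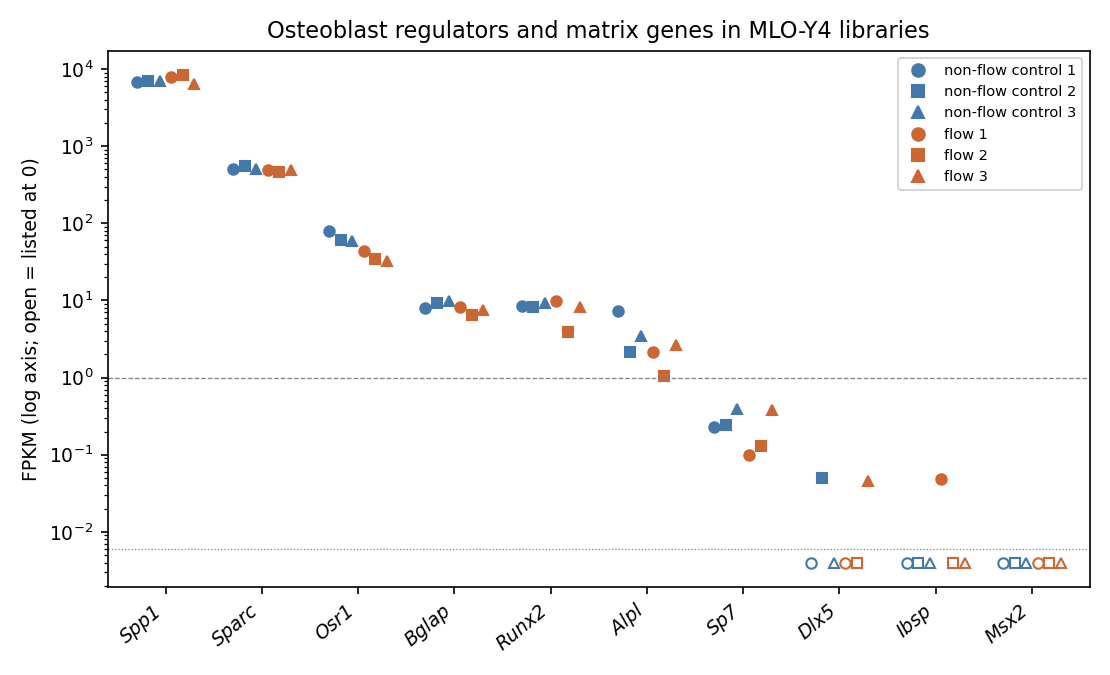
FPKM of the 10 genes in each library on a log axis, ordered by mean. Blue symbols are controls, orange symbols flow libraries, open symbols values listed at 0, and the dashed line marks 1 FPKM. Spp1 lies between 6445 and 8360 FPKM, while Dlx5, Ibsp and Msx2 are mostly listed at 0.

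No member passed the test over all genes (limma, 0 of 6 tested, 1 of 6 with an unadjusted p under 0.05). Of the 6 tested members 5 had a negative difference, as did 51.7% of all genes tested. The median was -0.27 over the members and -0.01 over all genes tested. In 2 of 6, Osr1 and Sparc, the 3 flow values lay below the 3 controls, as in 8.00% of all genes tested. The smallest two-sided p that an exact permutation test of 3 against 3 allows is 0.1, and no such test was run. In these bulk cultures fewer cells with a transcript and less of it per cell cannot be told apart.

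**Figure D2:**
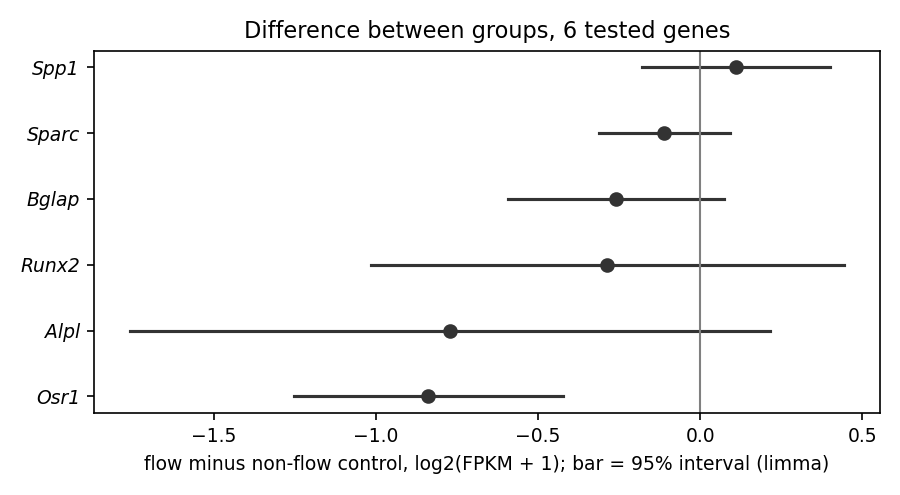
Difference between flow and control on the log2(FPKM + 1) scale (x axis) for the 6 tested genes, with the 95% interval from limma, not adjusted for the number of genes. The interval of Osr1 runs from -1.25 to -0.42, and those of the other 5 genes include 0.

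Osr1 had the smallest p of the tested members. Osr1 (ENSMUSG00000048387, chromosome 12 at 9570116 to 9581500 of mm10, plus strand) had 80.7, 61.0 and 58.3 FPKM in non-flow controls 1 to 3. In flow libraries 1 to 3 Osr1 had 43.4, 34.5 and 32.3 FPKM. All flow values lay below all controls, and the highest flow value was 43.4 against a lowest control value of 58.3. Mean levels were 66.6 ± 12.2 FPKM without flow and 36.7 ± 5.90 FPKM with flow (SD, n = 3), a ratio of 0.551. On the log2 scale the difference was -0.84 with SE 0.17 (95% interval -1.25 to -0.42), and limma did not call it (adjusted p = 0.559). By unadjusted p Osr1 ranked at position 34 of the 11957 genes tested, and 2.91% of genes had a difference as low or lower.

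Osr1 kept its direction under each of 18 other processing choices, between -1.01 and -0.514, with no overlap between the groups. Flow library 3 stood alone in 1 of them. The difference was -0.645 in protein-coding genes with the GC trend removed. There the dependence of each library's values on transcript GC content was subtracted. Most of the 18 reuse the main values, or part of them, in the same order, which fixed direction and lack of overlap in advance. Only quantile normalization, removal of the GC trend and a second deposited table, with or without its control 1, could have changed them. The adjusted p of Osr1 ranged from 0.108 (without flow library 3) to 0.931. The second deposited table rested on fewer reads, 686700 in control 1 and 3611000 to 4722000 in its other 5 columns. There Osr1 had 70.0, 47.9 and 51.5 FPKM in the controls and 41.9 FPKM in flow library 1. The flow columns of that table that name no library title had 31.2 and 31.4 FPKM. No other gene shares exon bases with Osr1 in GENCODE M21. Osr2, the paralog of Osr1, had 1.503, 1.23 and 1.76 FPKM in the controls, against 0.774, 0.798 and 2.01 in flow libraries 1 to 3, with overlap between the groups.

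**Figure D3:**
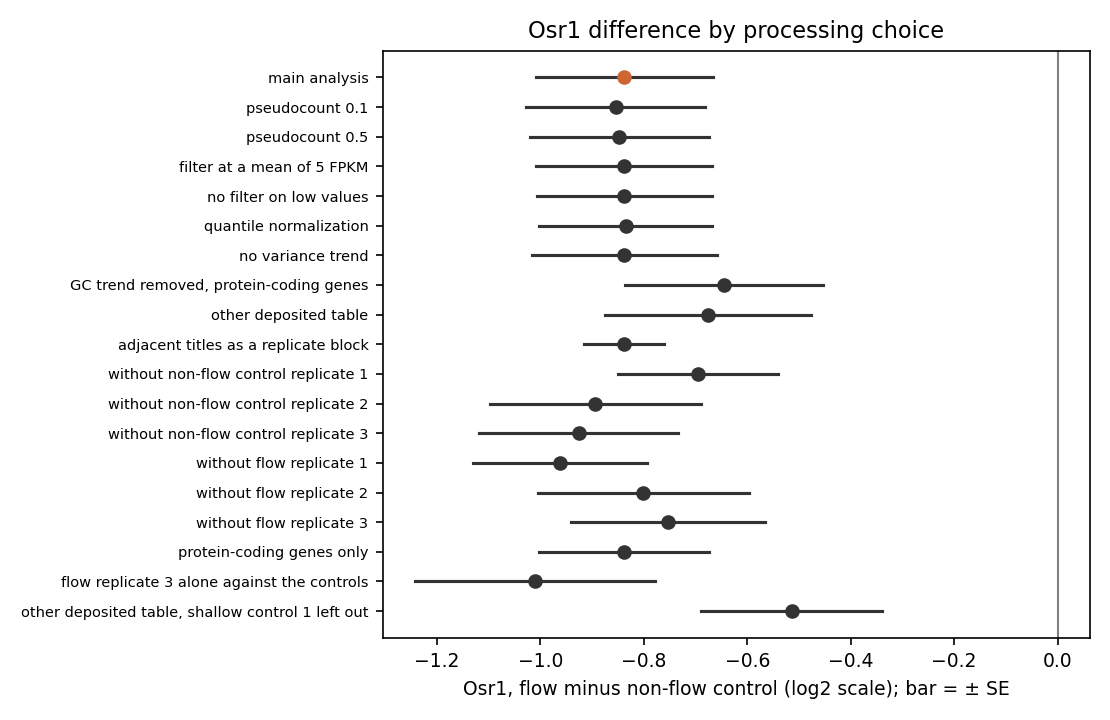
Osr1 difference between flow and control on the log2 scale (x axis) under each processing choice (rows), with ± SE; the orange point is the main analysis at -0.84. Each estimate lies below 0, the nearest at -0.514 in the other deposited table with its shallow control 1 left out.

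Runx2, the master regulator of the lineage, was at a low level with a single library apart. Runx2 (ENSMUSG00000039153, chromosome 17 at 44495987 to 44814797, minus strand) had 8.42, 8.22 and 9.32 FPKM in controls 1 to 3. Flow libraries 1 to 3 had 9.88, 3.88 and 8.29 FPKM. Flow library 2 alone was low, and the other two flow libraries lay near or within the control range. The difference was -0.29 with SE 0.30 (95% interval -1.02 to 0.44; limma, adjusted p = 0.696). Without flow library 2 it was 0.06. That library was the shallowest, and its value there stands for at most 140 reads if all came from the longest coding transcript of 6463 nt. In the other deposited table Runx2 had 6.75, 6.51 and 9.14 FPKM in controls. There flow library 1 had 11.4 FPKM, above all controls, and the flow columns that name no library title had 3.47 and 8.83. The difference there was -0.04 with SE 0.40. An antisense gene, Runx2os1, shares 5.87% of the exon bases of Runx2, and whether the authors counted by strand is not given in the sources used here.

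The partners and relatives of Runx2 were measured beside it. Cbfb, the partner that RUNX proteins need for stable DNA binding, had 47.9, 44.5 and 44.0 FPKM in controls against 63.4, 61.0 and 49.4 under flow. All 3 flow values of Cbfb lay above the controls (difference 0.34, SE 0.12, limma adjusted p = 0.559). Runx1, the blood-lineage paralog, was at 13.47 to 18.6 FPKM in controls against 13.0 to 18.1 under flow, above Runx2 in all 6 libraries. Runx3 reached at most 0.212 FPKM. Of 20 fixed RUNX2 cofactors 20 were tested, and none was called by limma. A negative difference was found in 12 of them (median -0.06), and in 51.7% of all genes tested. In 1 of the 20 the flow values lay below all controls, and in 1, Cbfb, above them, against 8.00% and 7.12% of all genes tested. The former was Hdac5, a histone deacetylase that can repress RUNX2. It had 55.6, 44.8 and 53.9 FPKM in controls against 38.6, 29.0 and 44.0 under flow (difference -0.47, SE 0.18, limma adjusted p = 0.559). Hdac7, another deacetylase of that class, had a difference of -0.34 with overlap between the groups, and Tle3, a Groucho corepressor, had -0.33.

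Sp7 was low, and near the limit of detection in flow libraries 1 and 2. Sp7 (ENSMUSG00000060284, chromosome 15 at 102356606 to 102367182, minus strand) had 0.227, 0.245 and 0.388 FPKM in controls, against 0.10, 0.128 and 0.384 in flow libraries 1 to 3. On the longest transcript these are 11.8 to 21.4 reads in controls and 3.21, 2.14 and 21.4 reads in flow, and 3 reads equal 0.180 FPKM in flow library 2. The groups overlapped, and the low flow values were in the shallow libraries. Other SP factors, Sp1 and Sp3, which act in most cells, were at 18.2 to 35.3 and 21.5 to 25.9 FPKM over the 6 libraries. Sp1 had all flow values below the controls (difference -0.45, SE 0.19, limma adjusted p = 0.559).

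The DLX and MSX members were at or near 0. Dlx5 (ENSMUSG00000029755, chromosome 6 at 6877805 to 6882085, minus strand) was listed at 0 in 4 libraries, and at 0.0492 FPKM in control 2 and 0.0463 in flow library 3. Each of these values equals 1 read on the coding transcript of 1324 nt. Msx2 (ENSMUSG00000021469, chromosome 13 at 53466884 to 53473074, minus strand) was listed at 0 in all 6 libraries, where 3 reads would have given 0.0692 to 0.231 FPKM. Msx1, its paralog, and Dlx6, the neighbour of Dlx5, were also listed at 0 throughout. Other DLX genes had RNA in these cells. Dlx3, which also acts in bone, had 59.5, 60.2 and 20.6 FPKM in controls against 44.3, 32.8 and 22.5 under flow, a spread within groups as wide as between them (difference -0.38, SE 0.46). Dlx1 had 5.35, 6.10 and 7.46 FPKM in controls against 3.45, 2.71 and 5.18 under flow. All flow values of Dlx1 lay below the controls (difference -0.63, SE 0.23, limma adjusted p = 0.559).

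**Figure D4:**
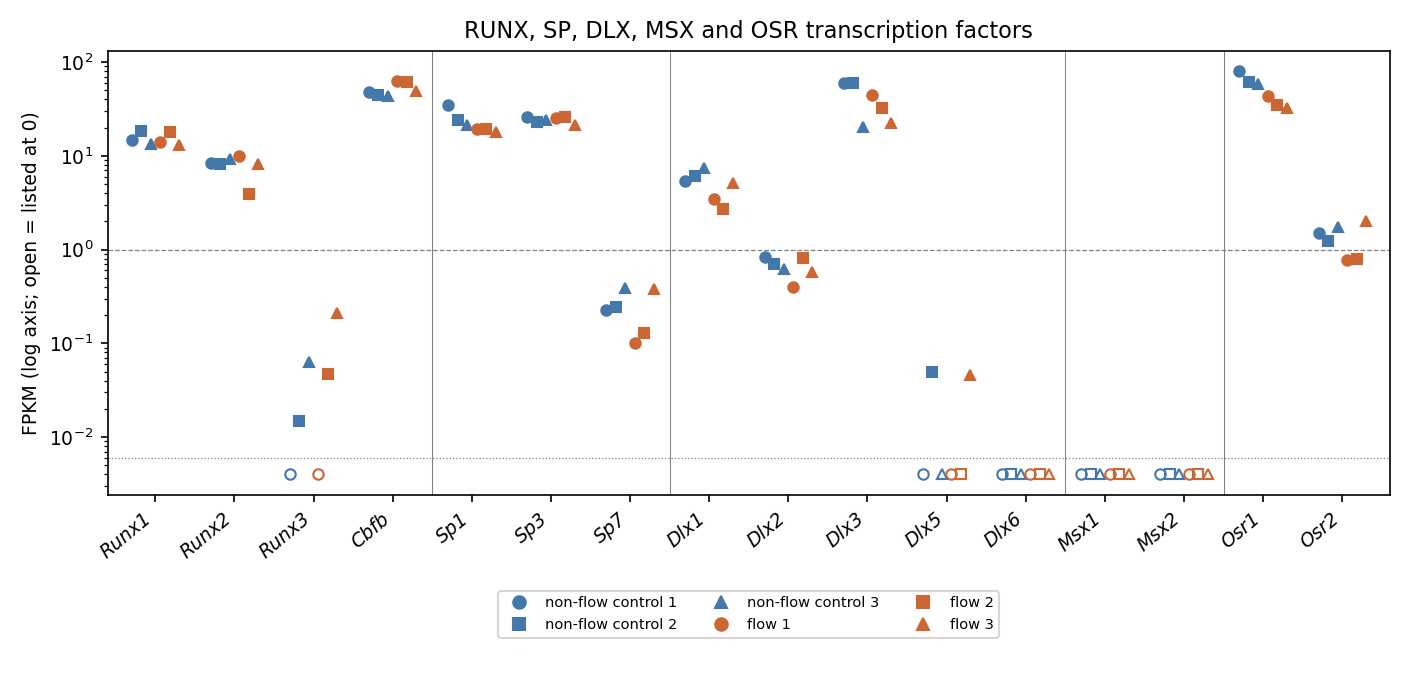
FPKM on a log axis for transcription factors of the RUNX, SP, DLX, MSX and OSR families and the RUNX partner Cbfb, in controls (blue) and flow libraries (orange), with open symbols for values listed at 0. Runx1 lies above Runx2, Sp1 and Sp3 above Sp7, and Dlx3 above Dlx5 in each of the 6 libraries.

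Among 33 osteoblast transcription factors fixed as a list, 21 were tested. Of these 16 had a negative difference, against 51.7% of all genes tested, and the median was -0.05. None was called by limma, and 3 had an unadjusted p under 0.05. In 3 of the 21 the flow values lay below the controls (Osr1, Sp1 and Dlx1), and in 1, Cbfb, above them. Over all genes tested the shares were 8.00% below and 7.12% above. The list members with the most RNA were Atf4, a stress-responsive factor that drives late osteoblast genes, at 321.3 to 433.8 FPKM, and Prrx1, a limb mesenchyme factor, at 89.9 to 122.7 FPKM. Both had overlapping groups.

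Spp1 encodes osteopontin, an acidic phosphoprotein that binds integrins and CD44 and restrains crystal growth. Spp1 (ENSMUSG00000029304, chromosome 5 at 104435118 to 104441050, plus strand) had 6868, 7054 and 6944 FPKM in controls 1 to 3 and 7851, 8360 and 6445 in flow libraries 1 to 3. The controls lay close together (SD 93.4), while flow libraries 1 and 2 were above them and flow library 3 below. The difference was 0.11 with SE 0.12 (95% interval -0.18 to 0.40; limma, adjusted p = 0.705). It turned to -0.03 with the GC trend removed, and to -0.11 with flow library 3 alone against the controls. Spp1 held 1.11% to 1.16% of the summed FPKM of protein-coding genes in controls and 1.07% to 1.33% in flow, and ranked at position 2 or 3 among them in each library. Gm42793, a provisional gene model on the same strand, shares 18.8% of the exon bases of Spp1.

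Spp1 belongs to the SIBLING genes, a cluster of acidic phosphoproteins on chromosome 5 that otherwise mark mineralizing cells. Its neighbour Ibsp (ENSMUSG00000029306, chromosome 5 at 104299171 to 104311469, plus strand) was listed at 0 in 5 libraries and at 0.0485 FPKM in flow library 1, the value of 1 read on its transcript of 2068 nt. Mepe and Dspp were listed at 0 in all 6 libraries. Dmp1 was listed at 0 in 4 libraries and reached at most 0.0354 FPKM. So 1 of the 5 SIBLING genes, Spp1, was tested, and the other 4 were listed at 0 in at least 4 of the 6 libraries.

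Receptors for osteopontin and bone sialoprotein were present. Of 10 fixed genes 5 were tested, 3 with a negative difference (median -0.15; 51.7% of all genes tested), and none was called by limma. Cd44 had 160.4 to 221.4 FPKM, Itgb1 200.2 to 272.1 and Itgb5 110.3 to 158.5 over the 6 libraries. Itgav, which pairs with those beta chains, was at 26.7 to 47.4 FPKM, and Itgb3, the usual osteoclast partner, at 0.280 to 1.51 FPKM. Itga5, the fibronectin receptor chain, had 111.4, 98.9 and 87.5 FPKM in controls against 74.5, 66.2 and 88.7 under flow, with overlap in flow library 3 (difference -0.38, SE 0.15, adjusted p = 0.559).

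Sparc, a collagen-binding glycoprotein also called osteonectin, had the narrowest interval of the tested members. Sparc (ENSMUSG00000018593, chromosome 11 at 55394500 to 55423183, minus strand) had 501.3, 556.8 and 506.7 FPKM in controls against 490.0, 465.4 and 491.8 under flow. All flow values lay below all controls, but the gap between the lowest control and the highest flow library was small beside the spread of the controls. The means were 521.6 ± 30.6 and 482.4 ± 14.7 FPKM (SD, n = 3), a difference of -0.11 with SE 0.08 (95% interval -0.31 to 0.09; limma, adjusted p = 0.631). The groups overlapped with quantile normalization, with the GC trend removed (difference -0.03) and in the other deposited table, there through its shallow control 1 at 448.4 FPKM. In the SPARC family 3 of 8 genes were tested, all with a negative difference (51.7% of all genes tested) and none called by limma. Fstl1 was as abundant as Sparc, at 474.1 to 496.5 FPKM in 5 libraries and 382.0 in flow library 3, and Sparcl1 was at 5.42 to 8.55 FPKM.

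Bglap encodes osteocalcin, the vitamin K-dependent protein of late osteoblasts, and its values are uncertain because the mouse genome holds near-identical copies in tandem. Bglap (ENSMUSG00000074483, chromosome 3 at 88383501 to 88384464, minus strand) had 7.88, 9.26 and 9.95 FPKM in controls against 8.20, 6.43 and 7.501 under flow. The groups overlapped through control 1 and flow library 1, and the difference was -0.26 with SE 0.14 (95% interval -0.59 to 0.07; limma, adjusted p = 0.560). It was -0.09 with the GC trend removed and -1.15 in the other deposited table, where control 1 had 15.9 FPKM on only about 2.62 reads. With that library left out it was -0.88. The transcript is only 440 nt long, so these values stand for 33.9 to 45.4 reads in controls and 21.7, 8.89 and 34.6 reads in flow.

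The copy Bglap2 had 4.78, 4.53 and 8.61 FPKM in controls against 3.38, 1.94 and 3.67 under flow. All flow values of Bglap2 lay below the controls (difference -0.78, SE 0.29, limma adjusted p = 0.559), on 22.2 to 44.4 reads in controls against 10.1, 3.03 and 19.1 under flow. Of the 391 windows of 50 bases in the Bglap transcript, the length of a read, 74.7% occur unchanged in Bglap2. Of the windows of Bglap2, 88.2% occur in Bglap or Bglap3. Most reads of either gene could therefore have been placed on the other, and how the authors placed them is not given in the sources used here. The sum of Bglap, Bglap2 and Bglap3 depends on the division between Bglap and Bglap2 only through their similar lengths, 440 and 471 nt. It also depends on reads placed on Bglap3, of up to 2051 nt, and on any reads left out. It was 12.9, 14.1 and 19.8 FPKM in controls against 11.9, 8.58 and 11.8 under flow, with the flow values all below the controls. In the other deposited table the groups overlapped, both for Bglap2, at 0, 2.43 and 8.67 FPKM without flow against 4.13, 1.69 and 4.03 with it, and for the sum, at 15.9, 10.3 and 20.7 against 11.6, 8.14 and 6.78.

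Alpl, alkaline phosphatase, had the widest spread of the tested members. Alpl (ENSMUSG00000028766, chromosome 4 at 137741733 to 137796384, minus strand) had 7.31, 2.15 and 3.42 FPKM in controls against 2.15, 1.05 and 2.62 under flow. Control 1 stood above all others, and flow library 2 was the lowest, with at most 14.0 reads on the longest transcript of 2522 nt. The difference was -0.77 with SE 0.41 (95% interval -1.76 to 0.22; limma, adjusted p = 0.560). It was -0.385 without control 1, -0.43 with flow library 3 alone against the controls, and -0.53 without flow library 2. In the other deposited table control 1 had 3.61 FPKM on about 5.76 reads, too few to set its place among the controls, and the difference was -0.63 with it left out.

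Of 16 fixed mineralization genes 12 were tested, and none was called by limma. A negative difference was found in 9 of the 12 (median -0.07), and in 51.7% of all genes tested. Phospho1, the phosphatase that starts mineral inside matrix vesicles, had 7.20, 3.56 and 7.95 FPKM in controls against 2.58, 1.39 and 4.28 under flow, with overlap between control 2 and flow library 3 (difference -0.96, SE 0.38, adjusted p = 0.559). Nt5e, an ectonucleotidase that frees phosphate and adenosine, had all flow values above the controls, at 22.3 to 24.2 FPKM in controls against 24.6 to 31.3 under flow (difference 0.26, SE 0.11, adjusted p = 0.559). Entpd1, another ectonucleotidase, had 2.62, 2.11 and 0.772 FPKM in controls against 1.37, 0.266 and 0.164 under flow, with overlap. The phosphate transporter Slc20a1 and the annexins Anxa2 and Anxa5 led the list by level, at 44.95 to 71.8, 686.8 to 855.5 and 485.9 to 566.9 FPKM.

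Of 31 fixed genes of bone matrix other than collagen 16 were tested, and none was called by limma. A negative difference was found in 12 of the 16 (median -0.13), and in 51.7% of all genes tested. In 3 of the 16 the flow values lay below the controls (Bglap2, Sparc and Fbln5), and in none above. Over all genes tested the shares were 8.00% below and 7.12% above. After Spp1, the most abundant were Fn1, fibronectin, at 971.5 to 1282 FPKM and Ecm1, an extracellular matrix protein, at 640.3 to 872.1 FPKM. Efemp2, needed for elastic fibres, had 254.2 to 264.1 FPKM in controls against 204.8, 166.8 and 260.0 under flow, with overlap in flow library 3 (difference -0.33, SE 0.16, adjusted p = 0.559). The small leucine-rich proteoglycans ranged widely in level. Bgn was at 226.0 to 295.9 FPKM, Ogn at 13.3 to 33.3, Dcn at 8.69 to 24.4 and Omd at 0.310 to 1.025. Fmod, Lum and Aspn reached at most 0.0191, 0.0298 and 0.0987 FPKM, and Kera was listed at 0.

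**Figure D5:**
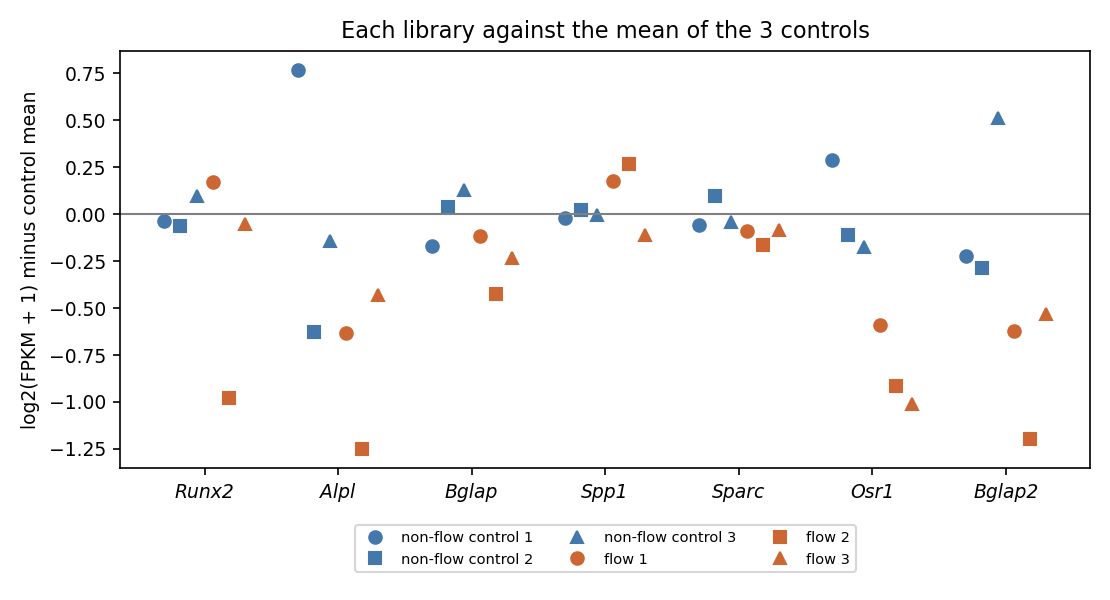
Log2(FPKM + 1) of each library minus the mean of the 3 controls (y axis) for the 6 tested genes and the copy Bglap2, with controls in blue and flow libraries in orange. Flow library 2 (orange square) is the lowest of the 6 libraries for Runx2, Alpl, Bglap, Sparc and Bglap2, and the highest for Spp1.

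Library by library, flow library 2 stood at one end for most members. It was the lowest of all 6 libraries for Runx2 (-0.98 from the control mean on the log2 scale), Alpl (-1.25), Bglap (-0.43), Sparc (-0.16) and Bglap2 (-1.20), and the highest for Spp1 (0.27). For Osr1 the lowest was flow library 3 at -1.01, with flow library 2 at -0.91 and flow library 1 at -0.59. Flow library 2 was also the shallowest at 5755000 reads, and the part of depth in these values was not tested. Flow library 3, the deepest of all 6, lay below the control mean for each of these 7 genes, by 0.05 for Runx2 up to 1.01 for Osr1.

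The genes whose pattern over the 6 libraries was most like each member were read off as a description. For Osr1 these were Dnttip1 (Pearson r = 0.994), Abtb1 (0.988) and Naa20 (0.978), and 81 of 11956 other genes reached 0.9. For Runx2 they were Itgb5 (0.993), Suclg1 (0.992) and Gm23130 (0.988), with 195 genes at 0.9 or above, and for Spp1 they were P2rx3 (0.998), Ascc3 (0.995) and Asah2 (0.994), with 678. Ogdh was the most like Alpl (0.995), Tmem138 the most like Bglap (0.986) and Copz1 the most like Sparc (0.994). The 6 points of each correlation share libraries and depth.

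The cell type was checked against markers. The line had osteocyte and mesenchyme RNA of some kinds and lacked others. Pdpn, a membrane protein of early osteocytes, was at 357.5 to 420.4 FPKM, Gja1, connexin 43, at 413.6 to 503.2, and Phex at 4.06 to 7.46. Sost, Fgf23 and Mepe were listed at 0 in all 6 libraries. Of the osteoblast markers, Col1a1 was at 105.3 to 169.2 FPKM, while Cdh11 and Pth1r reached at most 0.192 and 0.182 FPKM.

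Markers of other lineages gave 10 tested genes over 5 lists, none called by limma. None was without overlap between the groups, against 15.1% of all genes tested. Of 9 chondrocyte genes 2 were tested, Sox9 and Sox5 (median -0.43), with a summed level of 30.6 to 48.0 FPKM in controls against 24.1 to 32.4 under flow, and Col2a1 and Acan at or near 0. Of 7 adipocyte genes 4 were tested (median -0.00143, 61.1 to 68.4 FPKM summed over the 6 libraries), among them Pparg at 10.8 to 23.8 FPKM and Lpl at 30.7 to 38.9, while Adipoq reached at most 0.478. Of 8 macrophage and osteoclast genes 7 were found and 2 tested (median -0.05, 167.2 to 219.1 FPKM summed), nearly all of it Ctsk, with Ptprc and Calcr at or near 0. Of 7 endothelial genes 2 were tested (median -0.17, 81.1 to 119.6 FPKM summed), nearly all of it Eng, with Cdh5 and Kdr at or near 0. Of 6 muscle genes 0 were tested, and their sum reached at most 2.25 FPKM.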

How the data were processed

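RNA was measured in 6 libraries of MLO-Y4 cells, 3 flow and 3 non-flow control, numbered in accession order. The submitters' processing notes name build mm10 with TopHat2 2.0.9, CASAVA 1.8.2 and Cufflinks 2.2.1, and the authors deposited 2 tables of FPKM per gene and library. For annotation, scaling and strand use the sources used here give nothing. The table whose 6 columns name library titles was tested. In the other, 2 flow columns match no title and served as flow replicates, and of rows that repeat a gene identifier the one with the higher mean was kept.

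No counts were given, so log2(FPKM + 1) of genes averaging 1 FPKM or more was fitted with limma 3.58.1 in R 4.3.3 (eBayes with trend, two-sided, Benjamini-Hochberg, no covariate). The fit was also run on simulated data with the same spread for all genes and libraries, which does not speak to the unequal depth here. Depth came from the FPKM of 1 read in genes with 1 transcript, taking 200 nt off its length. Between 74.7% and 81.2% of such genes (82% to 84% in the other table) gave a whole read number to within 0.02. Depth holds if the authors did not rescale the libraries, and read numbers cover counting error only. Positions and transcript lengths are from GENCODE M21 (mm10), and promoter sequences from RefSeq GRCm38.p6.

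The members and the 12 gene lists were chosen with earlier results of these data known. Named genes are the 10 members, up to 4 genes per list with the smallest p and up to 3 with the highest mean, and the 3 genes most correlated with each tested member. Relatives of members, small leucine-rich proteoglycans, list genes without group overlap or at 0, and cell type markers are named besides. A symbol on more than 1 row was read from the row with the higher mean.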

Additional observations from a re-analysis of the deposited data

How the results depend on the processing

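No member was called by limma under any of the 18 alternatives, 15 planned and 3 chosen after seeing the data. Osr1, Bglap and Sparc kept their direction in each, and Alpl in the 17 in which it was tested. For Osr1 and Sparc, whose groups did not overlap, most alternatives could not have changed it. Runx2 turned to 0.0608 without flow library 2, and omissions of 1 library gave -0.517 to 0.0608. Spp1 turned to -0.0277 with the GC trend removed and to -0.11 with flow library 3 alone against the controls. The number of members without overlap, 2 of 6, became 1 with quantile normalization and 1 with the GC trend removed (Osr1 in both), 4 with flow library 3 alone, and 2 to 4 when 1 library was left out, the 4 being without flow library 3. Fewer libraries separate more often. Over all genes tested 15.1% were without overlap with all 6 libraries, and 49.1% with flow library 3 alone. With 1 library left out the share was 20.9% to 24.2%, except without flow library 3, where it was 45.6%. That omission left flow libraries 1 and 2, the shallowest, against the controls. In it 3152 genes had an unadjusted p under 0.05 (limma), against 480 to 619 with 1 of the other libraries left out. Over all genes, 2 calls became 4 with a pseudocount of 0.1, 4 with no filter and 76 with flow library 3 alone, where the spread comes from the controls only. The other deposited table with its shallow control 1 left out gave 17. Protein-coding genes gave 0 calls, with 998 at an unadjusted p under 0.05, and 0 with the GC trend removed, with 700. Leaving out 1 library gave 3 to 14 calls, 3 without flow library 1 and 14 without flow library 3. A fit with adjacent titles as a replicate block, a pairing no label states, gave 1 call, with 1404 genes at an unadjusted p under 0.05. In it the difference of Osr1 was -0.84 with SE 0.08 (limma, adjusted p = 0.349). That of Alpl was -0.77 with SE 0.27 (limma, adjusted p = 0.423). Deviations of adjacent libraries correlated at 0.0227, 0.043 and 0.0644 across genes, and those of the other control and flow pairs at -0.0685 to 0.0268. The cause of these shifts was not tested. Depth limits Sp7, Dlx5, Ibsp and Msx2, which had no more than about 21.4 reads in any library, and Bglap2 in flow library 2 (3.03 reads).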
